A study of Mus musculus with 32 samples.

Results

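The aryl hydrocarbon receptor pathway was followed here through 7 genes of the 20560 measured: the receptor Ahr, its dimer partner Arnt, its repressors Ahrr and Tiparp, and the target enzymes Cyp1b1, Cyp1a1 and Nqo1. Ahr was chosen by its measured values: its level was lower in knockdown than in control cells on every day, and the other 6 were taken as its partners and targets. The knockdown values of Ahr are therefore given as a description, with no test. All 7 genes were found in the table by symbol, and 5 of them passed the filter on low values in every comparison, while Ahrr and Cyp1a1 did not. RNA was sequenced from 3T3-L1, a line of mouse preadipocytes in which hormones induce fat storage. Every library came from cells carrying a short hairpin RNA (shRNA): shRNA #1 or shRNA #2 against Zbtb9, which encodes a BTB domain zinc finger protein, or a scramble hairpin, shCtrl. All arms were put through the same differentiation. At day 0, after confluence, dexamethasone, isobutylmethylxanthine and insulin were added. Of these, insulin alone was kept from day 3, and none was left from day 7. RNA was taken at days 0, 3, 7 and 11, with 4 shCtrl libraries and 2 libraries of each hairpin per day, 32 in all. The comparisons ask what loss of Zbtb9 did to gene expression at each time point of adipogenesis.

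The receptor is a basic helix-loop-helix transcription factor of the PAS family. Without a ligand it is held in the cytoplasm by heat shock protein 90 and its co-chaperones. Bound by dioxins, polycyclic hydrocarbons or tryptophan metabolites, it moves to the nucleus, pairs with ARNT and binds response elements with the core GCGTG, through which it raises transcription of cytochrome P450 enzymes of family 1. Its targets include AHRR and TIPARP, which both limit its activity. In fat cells the receptor is known mainly as a brake on adipogenesis. Each of these is a transcript here, so receptor protein, ligand and binding were not measured.

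Positions are from GENCODE M21 on GRCm38. Ahr (ENSMUSG00000019256) lies on chromosome 12 from 35497974 to 35535038, minus strand. Arnt (ENSMUSG00000015522) is on chromosome 3 from 95434388 to 95497240, plus strand, and Tiparp (ENSMUSG00000034640) on the same chromosome from 65528410 to 65555518, plus strand. Ahrr (ENSMUSG00000021575) is on chromosome 13 from 74211118 to 74292331, minus strand, and Cyp1b1 (ENSMUSG00000024087) on chromosome 17 from 79701537 to 79715061, minus strand. Cyp1a1 (ENSMUSG00000032315) is on chromosome 9 from 57687928 to 57703824, plus strand, and Nqo1 (ENSMUSG00000003849) on chromosome 8 from 107388225 to 107403206, minus strand. A transcript on the other strand overlaps 127 exon bases of Ahr and 223 exon bases of Tiparp, and whether reads were counted by strand is not given in the sources used here.

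Upstream sequence is shown for Tiparp and Cyp1b1, the members that moved with knockdown in opposite directions, and for Cyp1a1, the textbook target that stayed near 0 reads. The bases come from RefSeq on GRCm38.p6, run 5′ to 3′ along the gene's strand, and carry in capitals each match to GCGTG or to CACGC, the same letters on the other strand. The Tiparp stretch is chr3:65528197-65528409 on the plus strand, ending before its annotated first exon and lying in an exon of a pseudogene on the other strand. The Cyp1b1 stretch is chr17:79715062-79715311 on the minus strand. The Cyp1a1 stretch is chr9:57697363-57697612 on the plus strand, between exons of the longer GENCODE gene model.
Tiparp: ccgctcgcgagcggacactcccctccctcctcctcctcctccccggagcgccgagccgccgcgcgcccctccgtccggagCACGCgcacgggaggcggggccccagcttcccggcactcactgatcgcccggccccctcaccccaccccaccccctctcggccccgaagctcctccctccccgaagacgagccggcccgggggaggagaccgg
Cyp1b1: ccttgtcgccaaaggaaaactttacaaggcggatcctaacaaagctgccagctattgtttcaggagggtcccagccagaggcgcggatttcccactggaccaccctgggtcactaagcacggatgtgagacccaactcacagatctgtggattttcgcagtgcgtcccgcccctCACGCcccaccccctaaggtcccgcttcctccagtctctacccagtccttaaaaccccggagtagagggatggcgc
Cyp1a1: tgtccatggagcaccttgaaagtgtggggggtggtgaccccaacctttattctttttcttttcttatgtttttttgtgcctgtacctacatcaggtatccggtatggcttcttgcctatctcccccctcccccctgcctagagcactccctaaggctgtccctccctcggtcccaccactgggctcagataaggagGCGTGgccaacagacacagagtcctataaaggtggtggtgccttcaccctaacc
Each of the 3 holds 1 match, whose first base lies 170 bases before the RefSeq start in Tiparp, 76 in Cyp1b1 and 54 in Cyp1a1. The Cyp1a1 match is on the gene's strand and the other two are on the opposite strand. Over the same 250 bases upstream, Arnt had 1 match, Ahrr 3 and Nqo1 0. Of 32851 RefSeq promoters, 28.2% held at least 1 such match, so a single match does not mark these genes. The longer TNGCGTG, which contains the core, was found in Ahrr and in 4.1% of all promoters. A match is a stretch of letters and was not shown to be bound.

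Rebuilt reads in genes ran from 22280362 to 31073724 per library. The depths of knockdown and control libraries overlapped at days 0, 3 and 7, while at day 11 control libraries held 26486055 to 31073724 reads and knockdown libraries 22839506 to 25511851. The targeted gene Zbtb9 was covered by few reads, at 61.9%, 50.6%, 42.7% and 54.5% of control at days 0, 3, 7 and 11, and 2938 of its 3482 exon bases are shared with another gene on the same strand. The pooled difference of Zbtb9 was called at day 7 (adjusted p = 0.0288) and not at days 0 and 11 (adjusted p = 0.271 and 0.173), and at day 3 it did not pass the filter. The library labelled shRNA 1 replicate 2 at day 11 held 19.3 normalized reads of it, where control had 15.5 ± 4.02 (SD, n = 4). Every library is labelled as preadipocyte, and 10 preadipocyte and fibroblast markers summed to between 726417 and 763232 normalized reads in control libraries at day 0 and between 623554 and 712239 at day 11. Between these days they were lower, at 282757 to 310329 at day 3 and 588079 to 639040 at day 7, and over the 9 markers tested the median difference from day 0 was -1.67, -0.44 and -0.11 at days 3, 7 and 11. The summed level of adipocyte markers went from 20079 to 20663 at day 0 to between 58967 and 69234 at day 11 in control, and to between 125276 and 150226 in knockdown. Of 10 adipocyte markers, 1, 10, 10 and 9 were called higher in knockdown at days 0, 3, 7 and 11 and none lower, while 2, 3, 8 and 5 of 9 preadipocyte markers tested were called lower and 1, at day 3, higher. Of all genes, 0.817%, 14.6%, 24.9% and 16.8% were called higher and 2.44%, 12.1%, 22.6% and 16.2% lower in order of day. For markers of other cell types, summed levels per library reached at most 648 normalized reads for 5 macrophage and leukocyte genes, 48.7 for 5 endothelial genes and 26.1 for 5 epithelial genes. The 2 muscle genes in the table ran from 39.5 to 666, with the muscle enzyme Ckm at 0 reads in every library of day 0 and every knockdown library of day 11. Of these markers, 3 macrophage genes could be tested, with 1 higher and 1 lower at day 7 and 1 higher at day 11. Cd68, a macrophage lysosomal protein, went from 10.1 to 17.7 normalized reads in control at day 0 to 142 to 262 at day 11, where knockdown held 243 to 575. Lyz2, of the same list, went the other way in control, from 124 to 173 at day 0 to 29.9 to 48 at day 11. At day 7 it held 4.64 to 12.7 normalized reads in knockdown against 15.5 to 43.9 in control. Des, the muscle filament gene, was the 1 muscle gene tested and was higher in knockdown at days 7 and 11, with 544 to 666 against 292 to 388 normalized reads at day 7, while the 1 endothelial gene was called on no day, and no epithelial gene passed the filter. In bulk RNA, fewer cells of a type and less RNA per cell cannot be told apart, and the part of these marker shifts in the results on the pathway was not tested.

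Ahr fell as differentiation began and came back at its end in control cells, a contrast the choice of the gene did not use. Deposited values are on a log2 scale, and the log2 values of the 4 control libraries were 10.19, 10.31, 10.20 and 10.17 at day 0 and 8.77, 8.80, 8.99 and 8.99 at day 3. They were 8.70, 8.70, 8.81 and 8.71 at day 7 and 9.95, 9.97, 10.02 and 10.02 at day 11. The libraries of days 3 and 7 were thus all low, and those of days 0 and 11 all high, with no overlap. In normalized reads, which are reads over a library's size factor, the mean was 1259 ± 58.6 (SD, n = 4) at day 0, fell to 471 ± 41 and 417 ± 17.6 at days 3 and 7, and reached 1065 ± 26.6 at day 11. Against day 0, Ahr differed by -1.33 at day 3 (SE 0.06, limma adjusted p = 8.48e-21), by -1.49 at day 7 (SE 0.06, adjusted p = 6.54e-22) and by -0.23 at day 11 (SE 0.06, adjusted p = 0.00086). Neighbouring days also differed, by -0.16 from day 3 to day 7 (adjusted p = 0.0145) and by 1.26 from day 7 to day 11 (adjusted p = 2.32e-19). Of 9 preadipocyte markers tested, 7 were called lower and 2 higher than day 0 at day 3 (median -1.67) and 6 lower and 3 higher at day 7 (median -0.44), and their part in the course of Ahr was not tested. Of all genes, 38.2% were called lower and 38.3% higher at day 3, and 35.8% and 33.3% at day 7. The order of the Ahr levels was day 0, day 11, day 3 and day 7, where day 11 against day 3 was not tested. The libraries of those days did not overlap, whereas control replicate 3 of day 7 (8.81) lay above the 2 lowest libraries of day 3.

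The partner and the targets followed other courses in control cells. Tiparp, a mono-ADP-ribosyltransferase that modifies the receptor, rose by 0.72 at day 3 (SE 0.05, adjusted p = 1.01e-15) and stood 0.33 and 0.21 above day 0 at days 7 and 11 (adjusted p = 2.07e-07 and 0.000236). Cyp1b1, a cytochrome P450 that oxidises steroids and polycyclic hydrocarbons, rose by 0.49 at day 3 (SE 0.03, adjusted p = 3.95e-15) and stood 0.31 above day 0 at day 11 (adjusted p = 4.76e-10). Nqo1, a quinone reductase under both the receptor and the oxidative stress factor NRF2, did not move by day 3 beyond its error (0.03, adjusted p = 0.719) but was 0.46 higher at day 7 and 0.74 higher at day 11 (adjusted p = 2.27e-05 and 2.38e-08). Arnt stayed near its starting level, at -0.04 on days 3 and 7 (adjusted p = 0.272 and 0.296) and 0.09 on day 11 (adjusted p = 0.0269). Thus Ahr was lowest at the 2 time points where Tiparp was highest, and Cyp1b1 peaked at day 3, when Ahr was low.

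Of the 5 members tested, 2 were called higher and 1 lower in control cells at day 3, then 3 and 1 at day 7, and 4 and 1 at day 11. Differentiation moved most genes, so these counts are to be read against the whole table. Over all genes tested, 38.3% were called higher and 38.2% lower at day 3, 33.3% and 35.8% at day 7, and 33.0% and 31.6% at day 11. Between neighbouring days, 74.2% of genes were called from day 3 to day 7 and 55.0% from day 7 to day 11, and among the members 4 of 5 and 5 of 5. With every library scaled to the same total, the median of all genes at day 3 was -0.12, against which Ahr stood at -1.46, Tiparp at 0.59, Cyp1b1 at 0.36, Arnt at -0.17 (adjusted p = 2.36e-05) and Nqo1 at -0.09 (adjusted p = 0.3). The same scaling called Arnt at day 7 (-0.11, adjusted p = 0.00298) and took away the smallest calls, with Cyp1b1 at 0.01 at day 7 (adjusted p = 0.738, against 0.08 and 0.0251 as deposited) and Arnt at 0.04 at day 11 (adjusted p = 0.341). Dropping control replicate 1 or 3 of day 0 also ended the Cyp1b1 call of day 7 (0.08 and 0.07, adjusted p = 0.0689 and 0.112) as did dropping replicate 4 of day 7 (0.07, adjusted p = 0.0898). For Arnt at day 11, dropping control replicate 1 or 3 of day 0 or replicate 1 or 2 of day 11 ended the call, each with 0.08 (adjusted p from 0.0609 to 0.0762).

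**Figure D1:**
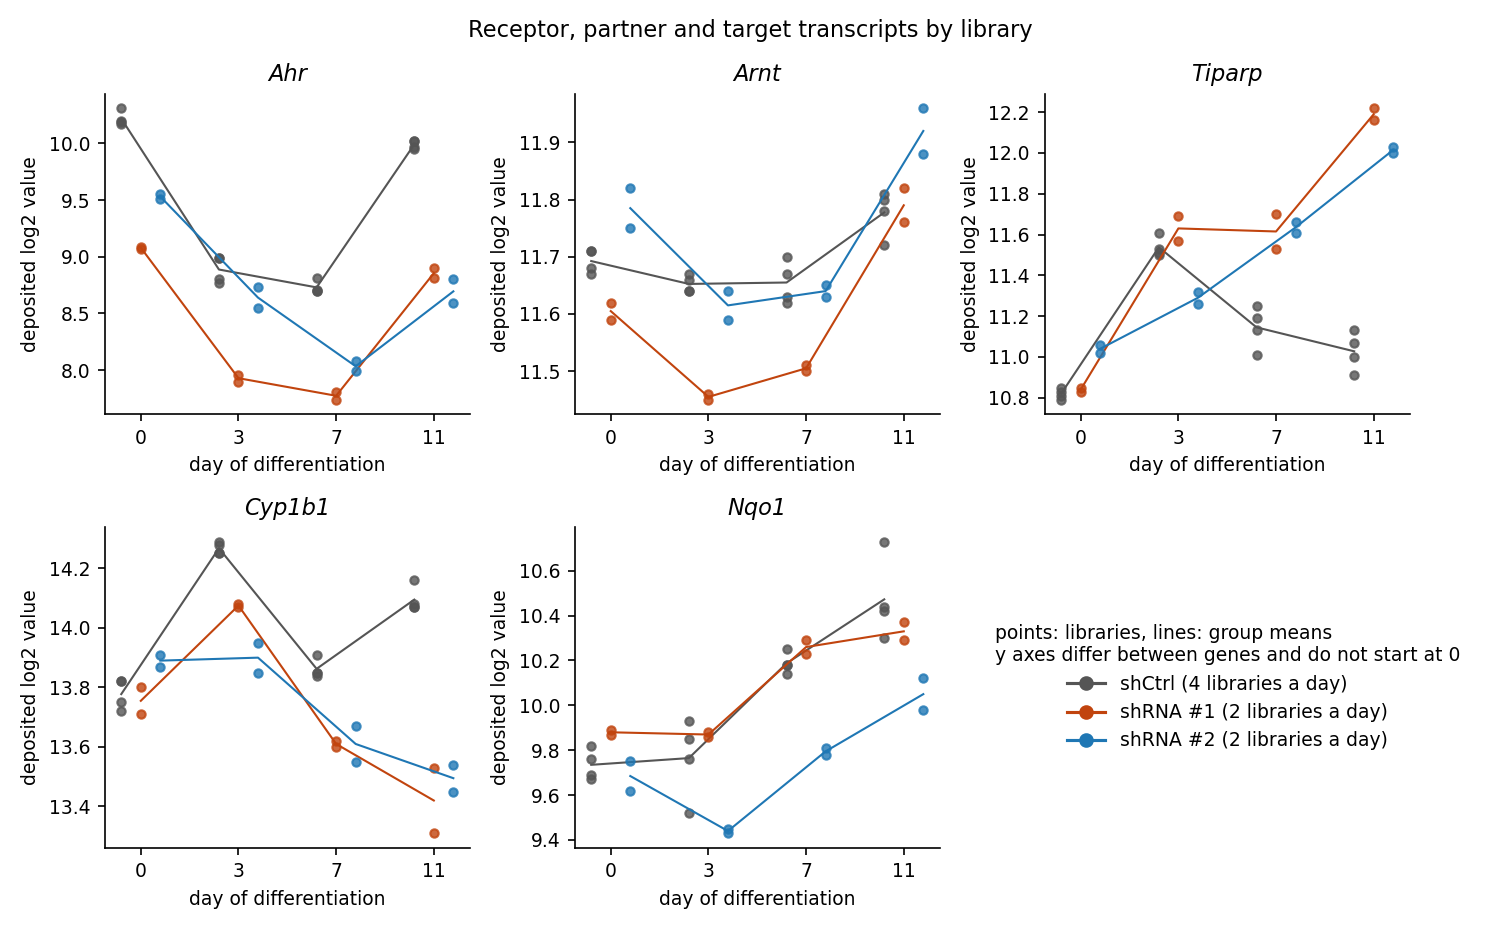
Deposited log2 values (y axis, a different range for each gene and not starting at 0) of Ahr, Arnt, Tiparp, Cyp1b1 and Nqo1 at days 0, 3, 7 and 11 (x axis, arms set side by side), with 1 point per library and lines through group means. Ahr in control is high at days 0 and 11 and low between, and knockdown Tiparp and Cyp1b1 leave the control points in opposite directions by day 11.

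Compared per kilobase of exon, the levels of the members in control cells at day 0 were led by Cyp1b1, at 2406 normalized reads per kilobase. Nqo1 followed at 543, then Arnt at 413, Tiparp at 409 and Ahr at 204. Cyp1b1 was thus an abundant transcript before any hormone was added. At day 7, when Ahr was lowest, the receptor stood at 67.7 and Cyp1b1 at 2555 per kilobase, and at day 11 they stood at 173 and 3011. Ahrr and Cyp1a1 stood at 0.107 and 0.441 per kilobase at day 0, on a few reads.

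In knockdown cells Ahr was below control at every time point, the pattern it was chosen for. At day 0 the log2 values were 9.09 and 9.07 with shRNA 1 and 9.51 and 9.55 with shRNA 2, where control began at 10.17. The day 3 values were 7.96 and 7.90 with shRNA 1 and 8.73 and 8.55 with shRNA 2, where control began at 8.77. Day 3 with shRNA 2 was the narrowest gap. At day 7 the values were 7.81 and 7.74 with shRNA 1 and 7.99 and 8.08 with shRNA 2, where control began at 8.70. At day 11 they were 8.90 and 8.81 with shRNA 1 and 8.80 and 8.59 with shRNA 2, where control began at 9.95. All 4 knockdown libraries lay below all 4 controls on every day, in the contrast the gene was chosen on. In normalized reads, the knockdown means in order of day were 651 ± 127, 309 ± 98, 223 ± 28.2 and 434 ± 40.8 (SD, n = 4), which is 51.7%, 65.6%, 53.4% and 40.7% of control. On the log2 scale the differences were -0.91, -0.60, -0.82 and -1.21 in order of day. Over time, control Ahr stood at 0.374, 0.332 and 0.845 of its day 0 level at days 3, 7 and 11. The ratios with shRNA 1 were 0.418, 0.369 and 0.848, near those of control, while with shRNA 2 they were 0.515, 0.324 and 0.536, so the return at day 11 was smaller in value with that hairpin.

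The 2 hairpins lowered Ahr to different levels early and to similar ones late. This contrast was not used to choose the gene. Ahr was higher with shRNA 2 than with shRNA 1 by 0.46 at day 0 (SE 0.07, adjusted p = 3.52e-06) and by 0.71 at day 3 (SE 0.11, adjusted p = 3.92e-06). At day 7 the difference was 0.26 (95% interval 0.04 to 0.49, adjusted p = 0.108) and at day 11 it was -0.16 (95% interval -0.34 to 0.03, adjusted p = 0.211), neither called over all genes. The day 7 difference was called when all 32 libraries were fitted together (adjusted p = 0.03). As a share of control, shRNA 1 libraries had 43%, 48.1%, 47.9% and 43.1% in order of day and shRNA 2 libraries 60.4%, 83.1%, 59% and 38.3%. Zbtb9 itself was at 53.8%, 36%, 45.9% and 88.5% of control with shRNA 1 and at 70%, 65.1%, 39.6% and 20.5% with shRNA 2, on 0 to 17 reads per knockdown library.

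Between the hairpins, the numbers called of the 5 members tested were 5, 5, 1 and 0 in order of day. Over all genes tested, 35.0%, 19.6%, 16.4% and 22.0% were called in order of day, so many genes told the hairpins apart. At day 0 the other differences, shRNA 2 minus shRNA 1, were 0.18 for Arnt, 0.20 for Tiparp, 0.13 for Cyp1b1 and -0.19 for Nqo1 (adjusted p = 0.00225, 0.00261, 0.00874 and 0.033). At day 3 they were 0.16 for Arnt, -0.34 for Tiparp, -0.17 for Cyp1b1 and -0.43 for Nqo1 (adjusted p = 0.0222, 1.46e-05, 0.00338 and 0.00085). Tiparp and Cyp1b1 thus changed sides between the hairpins from day 0 to day 3. Several of these calls rest on the settings of the fit. Without the trend and robust options, Cyp1b1 and Nqo1 at day 0 (adjusted p = 0.118 and 0.0702) and Arnt, Cyp1b1 and Nqo1 at day 3 (adjusted p = 0.081, 0.0899 and 0.0592) were not called. Without the filter Nqo1 was not called on either day (adjusted p = 0.0712 and 0.0537), and the model of all 32 libraries did not call Cyp1b1 or Nqo1 at day 0 (adjusted p = 0.0595 and 0.133). Others rest on single libraries. The day 0 call was lost for Arnt without shRNA 2 replicate 2 (0.14, adjusted p = 0.064) and for Cyp1b1 without shRNA 1 replicate 2 or shRNA 2 replicate 1 (0.09 and 0.11, adjusted p = 0.18 and 0.112). For Nqo1 it was lost without shRNA 1 replicate 1 or 2 or shRNA 2 replicate 1 (-0.20, -0.18 and -0.13, adjusted p = 0.0997, 0.128 and 0.302). The day 3 call was lost for Arnt without either shRNA 1 replicate or shRNA 2 replicate 2 (0.16, 0.16 and 0.13, adjusted p = 0.112, 0.0977 and 0.153) and for Cyp1b1 without shRNA 2 replicate 2 (-0.12, adjusted p = 0.104). At day 7 Arnt was also called with equal totals (0.18, adjusted p = 0.0281) and by the model of all 32 libraries (0.14, adjusted p = 0.0323), which called Ahr too. The count of 0 at day 11 is by limma, with 3 of the 5 at an unadjusted p under 0.05. Tiparp, Arnt and Nqo1 were each called there by the model of all 32 libraries (adjusted p of 0.0325, 0.0238 and 0.0228). Nqo1 was also called there without control replicate 3 (adjusted p = 0.02).

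Arnt, the partner the receptor needs to bind DNA, was not called different in knockdown on any day. At day 0 the values were 11.62, 11.59, 11.75 and 11.82 in knockdown, the shRNA 1 libraries first, and 11.67 to 11.71 in control. At day 3 they were 11.45, 11.46, 11.59 and 11.64 against 11.64 to 11.67. The shRNA 1 libraries were the low ones. At day 7 they were 11.51, 11.50, 11.65 and 11.63 against 11.62 to 11.70, and at day 11 they were 11.82, 11.76, 11.88 and 11.96 against 11.72 to 11.81. The arms overlapped on every day. The differences were 0.00 (95% interval -0.11 to 0.12), -0.12 (-0.22 to -0.01), -0.08 (-0.19 to 0.03) and 0.08 (-0.04 to 0.19), with adjusted p of 0.984, 0.0871, 0.212 and 0.304. The day 3 difference was called without shRNA 2 replicate 2 (-0.15, adjusted p = 0.0185), with the hairpins as separate groups (adjusted p = 0.00778) and when every library entered 1 model (adjusted p = 0.00388), which also called day 7 (adjusted p = 0.0321). Knockdown Arnt was at 100%, 92%, 94.4% and 106% of control. With shRNA 1 alone it was called lower at days 3 and 7, at -0.20 and -0.15 (adjusted p = 0.000408 and 0.0128).

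The receptor's repressor Ahrr and its classical target Cyp1a1 were near the limit of detection in every arm. Ahrr had 22 reads in the 16 control libraries together, at most 6 in 1 library, and 7 reads in the 16 knockdown libraries, at most 3. At day 3 all 8 libraries had 0 reads of 202831255, which allows an upper limit of 0.0148 (in reads per 1e6 reads). Cyp1a1 had 12 reads in control and 13 in knockdown libraries, at most 4 in 1 library. Of its 13 knockdown reads, 9 were at day 11, with 4 in each shRNA 1 library and 1 and 0 in those of shRNA 2, where control had 0, 0, 0 and 1. Neither gene passed the filter on low values, and a difference between arms was not tested. This limit covers counting error only, since without molecular identifiers reads may repeat a molecule.

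**Figure D2:**
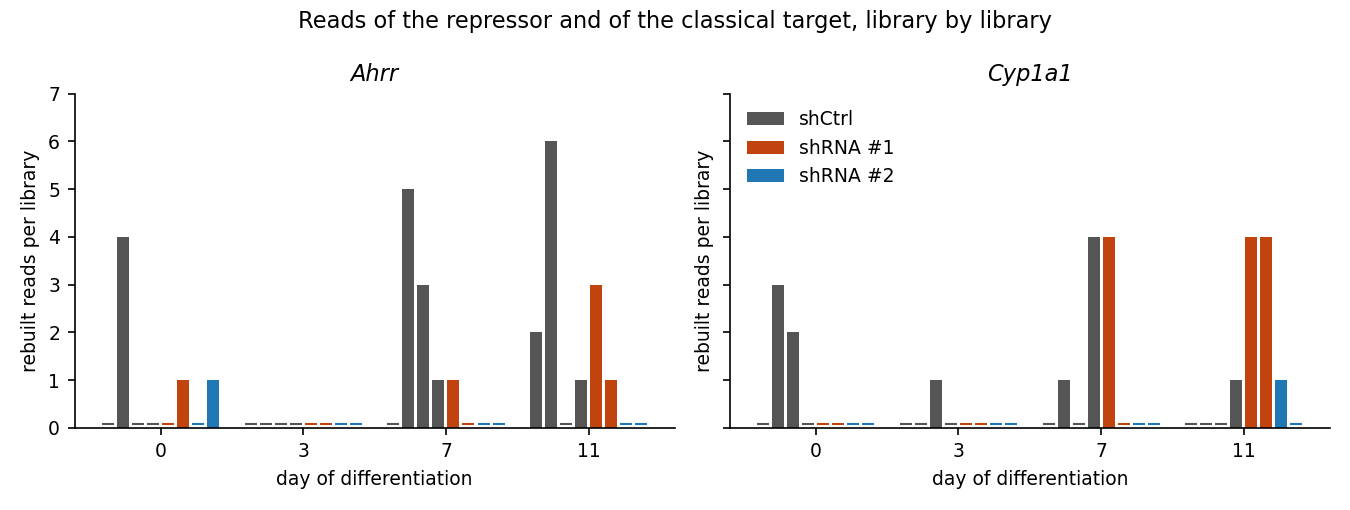
Whole reads rebuilt from the deposited values (y axis, per library, from 0) for Ahrr (left) and Cyp1a1 (right) at days 0, 3, 7 and 11 (x axis), with 1 bar per library and a thin mark at the base for a library at 0. No library has more than 6 reads of Ahrr or 4 of Cyp1a1, and Ahrr is at 0 in all 8 libraries of day 3.

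Cyp1b1 was lower in knockdown once differentiation had begun. At day 0 the log2 values were 13.80 and 13.71 with shRNA 1, 13.91 and 13.87 with shRNA 2 and 13.75, 13.82, 13.72 and 13.82 in control. The arms were mixed, and the difference was 0.04 (SE 0.05, adjusted p = 0.679). At day 3 the values were 14.08, 14.07, 13.95 and 13.85 in knockdown, the shRNA 1 libraries first, against 14.25, 14.25, 14.29 and 14.28 in control. At day 7 they were 13.60, 13.62, 13.67 and 13.55 against 13.84, 13.85, 13.85 and 13.91. At day 11 they were 13.53, 13.31, 13.54 and 13.45 against 14.07, 14.07, 14.16 and 14.08. From day 3 on, all 4 knockdown libraries lay below all 4 controls. The Cyp1b1 differences were -0.28 at day 3 (SE 0.05, adjusted p = 0.00116), -0.25 at day 7 (SE 0.05, adjusted p = 0.000339) and -0.64 at day 11 (SE 0.06, adjusted p = 1.88e-05). The day 3 call was lost with the replicate number as a block (-0.26, adjusted p = 0.0847) and kept under the other alternatives. In normalized reads the knockdown means were 16307 ± 1253, 12440 ± 438 and 11166 ± 813, and those of control 19877 ± 326, 14922 ± 328 and 17585 ± 588 (SD, n = 4), or 82%, 83.4% and 63.5% of control. Where control cells raised Cyp1b1 again from day 7 to day 11, by 0.23 (adjusted p = 4.59e-07), the knockdown mean went from 13.61 to 13.46. Both hairpins were below control on these 3 days, at -0.19, -0.25 and -0.67 with shRNA 1 and -0.37, -0.26 and -0.60 with shRNA 2 in order of day.

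Tiparp was higher in knockdown late in differentiation, the opposite direction to Cyp1b1. At day 0 the log2 values were 10.85 and 10.83 with shRNA 1, 11.02 and 11.06 with shRNA 2 and 10.85, 10.83, 10.79 and 10.81 in control. The day 3 values were 11.57, 11.69, 11.32 and 11.26 in knockdown, the shRNA 1 libraries first, against 11.50, 11.53, 11.61 and 11.51. Here the hairpins lay on either side of control or beside it. At day 7 the values were 11.53, 11.70, 11.66 and 11.61 against 11.19, 11.13, 11.25 and 11.01, and at day 11 they were 12.16 and 12.22 with shRNA 1 and at most 12.03 with shRNA 2, against 10.91, 11.13, 11.00 and 11.07. On these 2 days every knockdown library was above every control. The difference was 0.12 at day 0 (SE 0.06, adjusted p = 0.274) and -0.08 at day 3 (SE 0.08, adjusted p = 0.548). It was 0.48 at day 7 (SE 0.06, adjusted p = 8.08e-06) and 1.08 at day 11 (SE 0.07, adjusted p = 7.68e-07). Knockdown means were 3181 ± 165 and 4500 ± 345 normalized reads on these days, and control means 2258 ± 163 and 2074 ± 142 (SD, n = 4), or 141% and 217% of control. Control Tiparp fell by 0.12 from day 7 to day 11 (adjusted p = 0.0327), while the knockdown mean went from 11.62 to 12.10. With the hairpins as separate groups the day 0 difference of 0.12 was called (adjusted p = 0.0138), with shRNA 2 at 0.22 above control (adjusted p = 0.000593), and shRNA 1 at 0.02 (adjusted p = 0.775).

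The pooled comparison of Nqo1 was not called on any day. At days 3 and 7 Nqo1 was below control with shRNA 2 and not with shRNA 1. At day 11 it was below control in value with both hairpins and called with shRNA 2 only. At day 0 its log2 values were 9.87 and 9.89 with shRNA 1, 9.62 and 9.75 with shRNA 2 and 9.69, 9.82, 9.67 and 9.76 in control. The day 3 values were 9.86, 9.88, 9.43 and 9.45, the shRNA 1 libraries first, against 9.93, 9.52, 9.76 and 9.85. At day 7 they were 10.29, 10.23, 9.81 and 9.78 against 10.18, 10.25, 10.14 and 10.18. At days 3 and 7 the shRNA 2 libraries were below every control, while the shRNA 1 libraries lay among or above them. The day 11 values were 10.37, 10.29, 10.12 and 9.98 against 10.42, 10.44, 10.73 and 10.30. There the shRNA 2 libraries were again below every control, while shRNA 1 stood at and just below the low end of control. The pooled differences were 0.05, -0.11, -0.16 and -0.28 in order of day, with adjusted p of 0.719, 0.55, 0.242 and 0.0554. With shRNA 2 alone they were -0.05, -0.32, -0.40 and -0.42 (adjusted p = 0.664, 0.00189, 8.02e-06 and 0.00263), and with shRNA 1 they were 0.15, 0.10, 0.07 and -0.14 (adjusted p = 0.0619, 0.334, 0.341 and 0.241). The hairpins differed from each other by -0.47 at day 7 (adjusted p = 5.15e-05) and by -0.43 at day 3, a call lost without the filter (adjusted p = 0.0537) or without the trend and robust options (adjusted p = 0.0592), whereas at day 11 the difference of -0.28 was not called (95% interval -0.51 to -0.05, adjusted p = 0.0792). The pooled call rests on single libraries and on the fit. Dropping shRNA 1 replicate 1 gave a call at day 11 (-0.35, adjusted p = 0.0332) and another, of -0.25, at day 7 (adjusted p = 0.043), and dropping control replicate 4 gave one at day 11 (-0.34, adjusted p = 0.0427). Fitting the hairpins as separate groups also called Nqo1 at days 7 and 11 (adjusted p = 0.00906 and 0.00729), as did the model of all 32 libraries (adjusted p = 0.0385 and 0.000501), and equal totals called it at day 11 (adjusted p = 0.043).

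Of the 4 members other than Ahr that were tested, none was called at day 0, where 0.817% of all genes were called higher and 2.44% lower, with 0 of the 4 at an unadjusted p under 0.05 by limma, 0 called by voom on rebuilt reads, and 1, Tiparp, called with the hairpins as separate groups. At day 3 Cyp1b1 was called lower, where 14.6% of all genes were called higher and 12.1% lower. At day 7 Tiparp was called higher and Cyp1b1 lower, against 24.9% and 22.6% of all genes, and at day 11 the same 2 genes were called, against 16.8% and 16.2%. Calls were thus common among all genes from day 3 on, and 1 or 2 of 4 members do not set the pathway apart from them. The count at day 3 was 0 with the replicate number as a block. It was 2 in the fit of all 32 libraries, with the hairpins as separate groups, or without shRNA 2 replicate 2. At day 7 it was 4 in the fit of all 32 libraries. The shares of all genes called under these settings are not given here. Single hairpins against control were called for 34.7%, 39.4%, 52.0% and 43.6% of all genes with shRNA 1 in order of day, and for 17.6%, 31.4%, 46.0% and 36.9% with shRNA 2. Among the 4 members, shRNA 1 gave 0 (2, Arnt and Nqo1, at an unadjusted p under 0.05), 2, 3 and 2 calls and shRNA 2 gave 2, 3, 3 and 4. These comparisons share the control libraries. Members called with 1 hairpin and not the other were Arnt with shRNA 1 at days 3 and 7, at -0.20 and -0.15 (adjusted p = 0.000408 and 0.0128), and with shRNA 2 Nqo1 from day 3 and Tiparp at day 0. With shRNA 2 these were also Tiparp at day 3 (-0.24, adjusted p = 0.000119), Cyp1b1 at day 0 (0.11, adjusted p = 0.0256) and Arnt at day 11 (0.14, adjusted p = 0.0337). Whether the hairpins differed is given by the contrast between them.

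**Figure D3:**
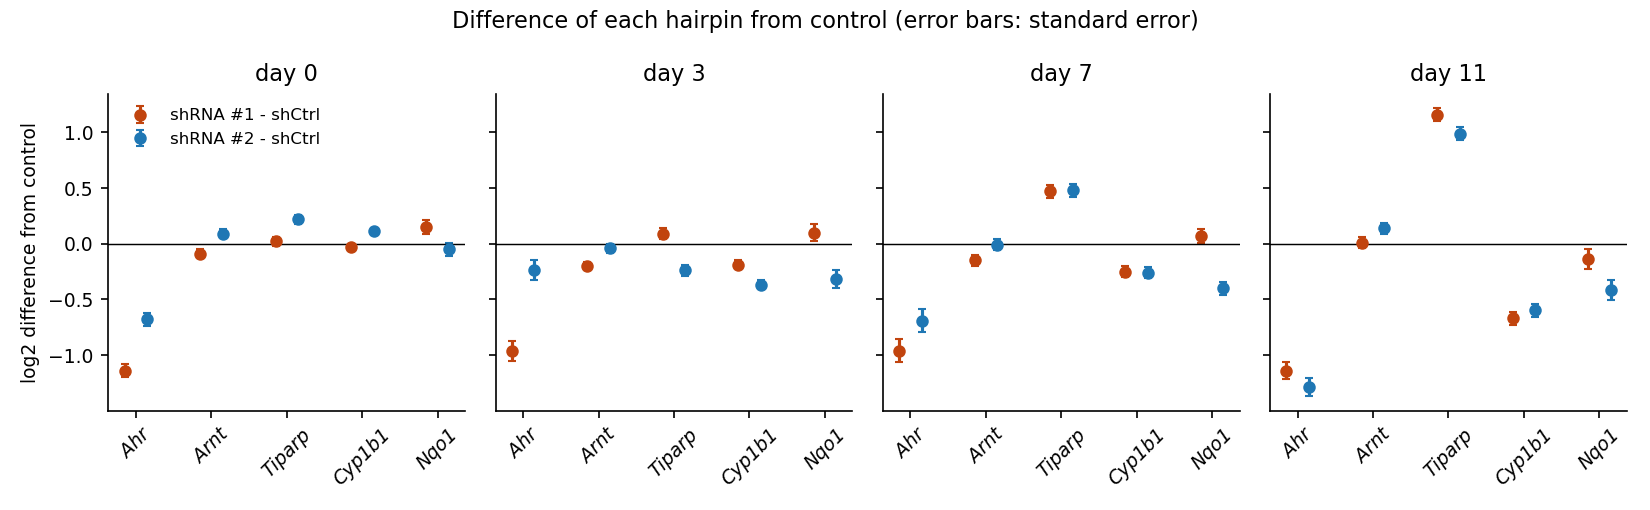
Log2 difference of each hairpin from control (y axis) for Ahr, Arnt, Tiparp, Cyp1b1 and Nqo1 (x axis), in 1 panel per day, with bars of 1 standard error from the limma fit of that day. Ahr is below 0 in every panel, Tiparp is above 0 with both hairpins at days 7 and 11, and Cyp1b1 is below 0 with both from day 3. At days 3 and 7 Nqo1 is below 0 with shRNA 2 and not with shRNA 1, and at day 11 it is below 0 with both.

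Whether the size of the knockdown effect changed with time was tested against day 0 in 1 fit of all 32 libraries. The Cyp1b1 effect differed from that of day 0 by -0.32 at day 3, by -0.30 at day 7 and by -0.68 at day 11 (adjusted p = 0.00523, 0.00211 and 1.35e-08). The Tiparp effect was higher than at day 0 by 0.36 at day 7 and by 0.96 at day 11 (adjusted p = 0.00754 and 1.25e-08), and at day 3 it differed by -0.19 (adjusted p = 0.289). For both genes the day 11 departure was larger than the earlier ones in value. Arnt (-0.12, -0.08 and 0.07) and Nqo1 (-0.16, -0.21 and -0.33) had no day called, with adjusted p from 0.156 to 0.653. For Ahr, whose knockdown values were chosen, the same terms were 0.31, 0.09 and -0.30, given without a test. Over all genes, 6.57%, 29.9% and 23.2% were called at days 3, 7 and 11, where 1, 2 and 2 of the 4 members were.

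Genes around the receptor were read from lists by role, against the share of all genes called higher and lower in knockdown, which was 0.817% and 2.44% at day 0, 14.6% and 12.1% at day 3, 24.9% and 22.6% at day 7 and 16.8% and 16.2% at day 11. Of the 6 chaperones that hold it in the cytoplasm, 0 were called by limma at day 0 (1 at an unadjusted p under 0.05), 2 higher at day 3, 2 higher and 1 lower at day 7, and 1 higher and 2 lower at day 11. All of these shifts were small, from Hsp90aa1, a heat shock protein 90, at 0.28 (SE 0.05, adjusted p = 0.000484) at day 3 to Cdc37, a kinase co-chaperone, at -0.19 (SE 0.06, adjusted p = 0.0109) at day 7. The medians of the list were 0.03, 0.02, 0.04 and -0.02 in order of day, where those of all genes tested were -0.01, 0.00, 0.01 and -0.01. Of 7 related helix-loop-helix PAS genes tested, 0 were called at day 0 (4 at an unadjusted p under 0.05), 1 higher and 1 lower at day 3, 1 higher and 2 lower at day 7 and 2 lower at day 11, with medians of -0.02, -0.03, -0.09 and -0.05. With 7 genes, these counts do not set the list apart from all genes. Arnt2, a close relative of Arnt, fell, with differences of -0.47, -1.43 and -0.76 at days 3, 7 and 11 (adjusted p = 0.00808, 2.98e-06 and 0.000128). Its normalized reads at day 7 were 48.7 to 102 in knockdown and 195 to 251 in control. Hif1a, the hypoxia factor that also pairs with ARNT, fell, at -0.37 and -0.36 on days 7 and 11 (adjusted p = 0.000109 and 0.00157), and the circadian gene Clock was 0.23 and 0.45 higher at days 3 and 7 (adjusted p = 0.0174 and 2.74e-05).

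Of 11 coregulators, 0 were called at day 0 (0 at an unadjusted p under 0.05), 3 higher at day 3, 3 higher and 4 lower at day 7 and 3 higher at day 11, with medians of 0.04, 0.10, -0.04 and 0.05. Of all genes, 0.817% were called higher and 2.44% lower at day 0, 14.6% and 12.1% at day 3, 24.9% and 22.6% at day 7, and 16.8% and 16.2% at day 11. The coregulators called higher were Ncoa1, Nrip1 and Rb1 on each of days 3, 7 and 11. Ncoa1, a steroid receptor coactivator, was 0.52, 1.07 and 0.53 above control (adjusted p = 0.000105, 1.75e-09 and 0.000102), and Rb1, the retinoblastoma gene, 0.27, 1.02 and 0.84 (adjusted p = 0.00559, 9.21e-09 and 1.4e-05). Nrip1, a corepressor with known roles in fat cells, was 0.27, 0.60 and 0.80 above control (adjusted p = 0.0015, 1.85e-07 and 3.66e-05). Crebbp, a histone acetyltransferase, was lower at day 7, at -0.37 (adjusted p = 0.00164). Rb1 held between 512 and 586 normalized reads in all control libraries, and between 1088 and 1297 in knockdown at day 7.

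Among other genes known as targets of the receptor, calls from day 3 on went both ways, as among all genes (14.6% higher and 12.1% lower at day 3, 24.9% and 22.6% at day 7, 16.8% and 16.2% at day 11, with 0.817% and 2.44% at day 0). Of 7 tested, or 8 at day 11, 0 were called higher and 1 lower at day 0, 1 and 2 at day 3, 2 and 2 at day 7 and 1 and 2 at day 11, with medians of -0.13, -0.01, -0.09 and -0.13. Aldh3a1, an aldehyde dehydrogenase, fell at day 0, at -0.93 (SE 0.11, adjusted p = 0.00211), with 39.5 to 59.3 normalized reads in knockdown and 98.2 to 122 in control. It was the only gene of this list called before differentiation, with 4 of the 7 at an unadjusted p under 0.05 there, and it was not called later (adjusted p = 0.724, 0.26 and 0.103). The glucuronosyltransferases Ugt1a6a and Ugt1a6b were lower at days 3, 7 and 11, at -0.54, -0.46 and -0.40 (adjusted p = 0.00881, 0.00985 and 0.0498) and at -0.42, -0.42 and -0.48 (adjusted p = 0.0288, 0.00119 and 0.00141), and since they share exons their reads may be split between them. At day 0 they stood at -0.58 and -0.41, not called (adjusted p = 0.0517 and 0.0664). Knockdown libraries held 16.7 to 29 normalized reads of Ugt1a6a against 37.9 to 61.7 in control, and 153 to 214 of Ugt1a6b against 235 to 279. How many of all genes had arms apart at day 0 was not counted. Slc7a5, an amino acid transporter, was 0.58 and 1.29 higher at days 3 and 7 (adjusted p = 1.89e-05 and 2.6e-08), and Ccng2, an atypical cyclin, 0.45 and 0.94 higher at days 7 and 11 (adjusted p = 0.000246 and 0.00481).

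Genes of the NRF2 response, which share Nqo1 as a target, were mostly called higher in control cells than at day 0. Of 16 tested, 9 were called higher and 4 lower at day 3, 12 and 2 at day 7, and 15 and 0 at day 11. Of all genes, 38.3%, 33.3% and 33.0% were called higher and 38.2%, 35.8% and 31.6% lower on these days. The medians were 0.16, 0.41 and 0.83, where those of all genes were 0.00, -0.01 and 0.01. At day 11 Slc7a11, the cystine transporter, led at 2.60 (SE 0.15, adjusted p = 1.09e-09), and the haem oxygenase Hmox1 stood at 1.80 and the glutathione synthesis gene Gclc at 1.39 (adjusted p = 6.13e-11 and 3.61e-18). In knockdown the list went both ways, with 1 higher and 0 lower at day 0, 2 and 6 at day 3, 3 and 5 at day 7 and 4 and 4 at day 11, and medians of 0.06, -0.03, -0.06 and -0.06. The shares of all genes called higher and lower were 0.817% and 2.44% at day 0, 14.6% and 12.1% at day 3, 24.9% and 22.6% at day 7, and 16.8% and 16.2% at day 11. At day 11 Slc7a11 fell by 1.25 (SE 0.24, adjusted p = 0.0064), while Osgin1, an oxidative stress growth inhibitor, rose by 0.94 (SE 0.07, adjusted p = 3.42e-06) and Hmox1 by 0.85 (SE 0.26, adjusted p = 0.0432). Gclc was the gene called at day 0, at 0.36 (adjusted p = 0.0488).

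Enzymes of tryptophan and kynurenine metabolism, a source of receptor ligands, were in part called higher in knockdown at days 7 and 11. Of 6 tested, or 5 at day 3, 0, 0, 4 and 2 were called higher and none lower (0 and 1 at an unadjusted p under 0.05 at days 0 and 3), with medians of 0.00, 0.03, 0.44 and 0.01. Over all genes, 0.817%, 14.6%, 24.9% and 16.8% were called higher and 2.44%, 12.1%, 22.6% and 16.2% lower in order of day. Tdo2, which opens the path from tryptophan to kynurenine, held at most 14.3 normalized reads in any library. Kyat3 and Kyat1, both kynurenine aminotransferases, were 0.75 and 0.66 above control at day 7 (adjusted p = 6.16e-06 and 1.07e-06) and 0.49 and 0.45 at day 11 (adjusted p = 0.00928 and 0.000526). Il4i1, an amino acid oxidase that makes receptor ligands, was 0.47 higher at day 7 (adjusted p = 0.00621). Kyat1 also rose in control cells, by 2.74 at day 3 (adjusted p = 1.87e-27), and knockdown libraries at day 7 had 1090 to 1279 normalized reads against 651 to 758.

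**Figure D4:**
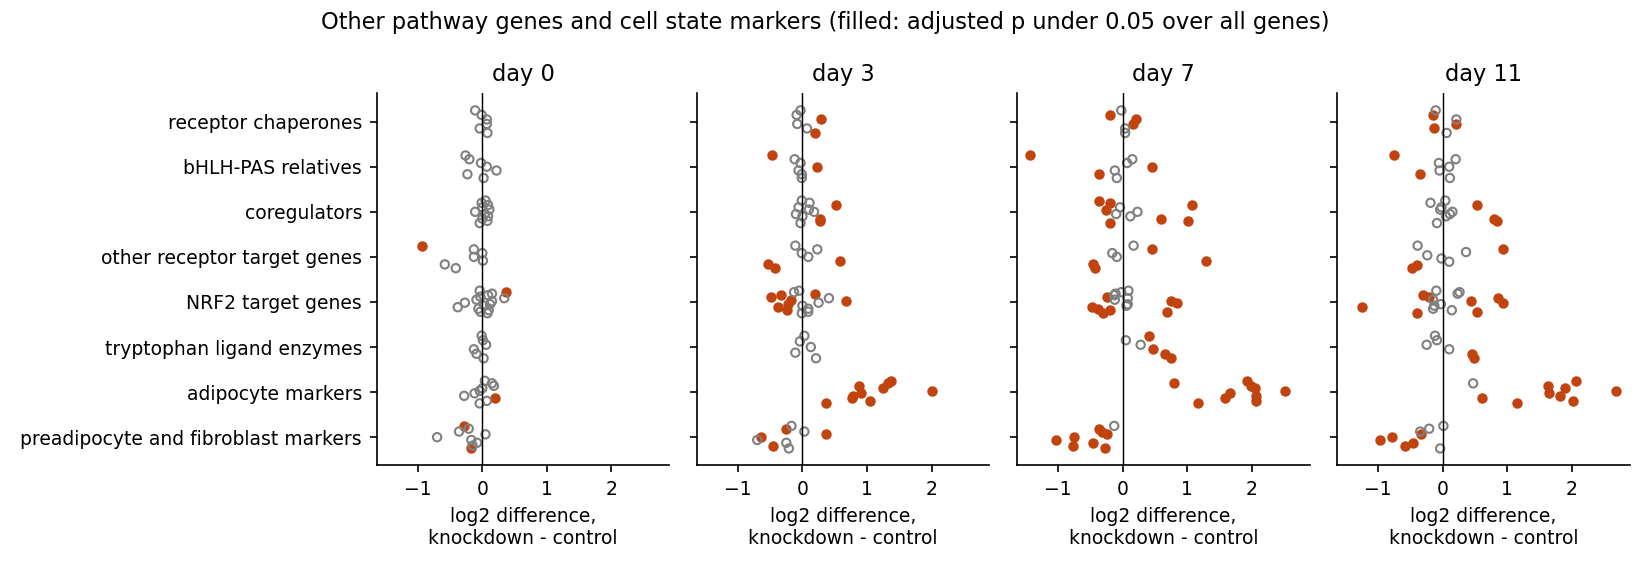
Log2 difference of knockdown from control (x axis) for each tested gene of 6 lists around the receptor and 2 marker lists (rows), in 1 panel per day. Filled points passed an adjusted p of 0.05 over all genes, and the adipocyte markers lie to the right from day 3 while the receptor lists spread to both sides of 0.

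The genes most like Ahr were sought by the Pearson correlation of the 12 group means, 3 arms on 4 days, among 11809 genes. The 5 with the highest correlation were Armc5 (0.948), Carmil3 (0.945), Rere (0.945), Akna (0.938) and Adam19 (0.929). Rere is a nuclear receptor corepressor, and Adam19 a membrane metalloprotease. Adam19 had group means of 9.73, 8.85, 8.72 and 9.57 in control in order of day and 8.77 and 8.68 at day 11 with shRNA 1 and shRNA 2. Like Ahr it was lowest at day 7 in every arm, but at day 0 its mean with shRNA 2 (9.92) was above that of control, unlike Ahr. Over the 32 libraries the correlations of these 5 were 0.895, 0.925, 0.931, 0.924 and 0.923. The order changed with the measure, and by Spearman rank correlation of the 12 means they ranked 56, 15, 178, 114 and 1. Among the members, the correlation with Ahr over the 12 means was 0.545 for Arnt, 0.234 for Cyp1b1, 0.011 for Nqo1 and -0.603 for Tiparp. The 5 genes above were picked as the highest of 11809, so lower values for the members were likely from the start. The 12 means also hold the knockdown groups Ahr was chosen on, and no typical correlation was worked out to judge the members by. For Cyp1b1 the most similar genes were Crocc2 (0.916), Nat14 (0.899), Agtrap (0.884), Dync1li2 (0.881) and Gprasp1 (0.876). Over the 32 libraries these had 0.871, 0.736, 0.817, 0.880 and 0.825, where Dync1li2 ranked 1 and Nat14 ranked 70. The 12 means share days and libraries, so these values describe likeness and carry no test.

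**Figure D5:**
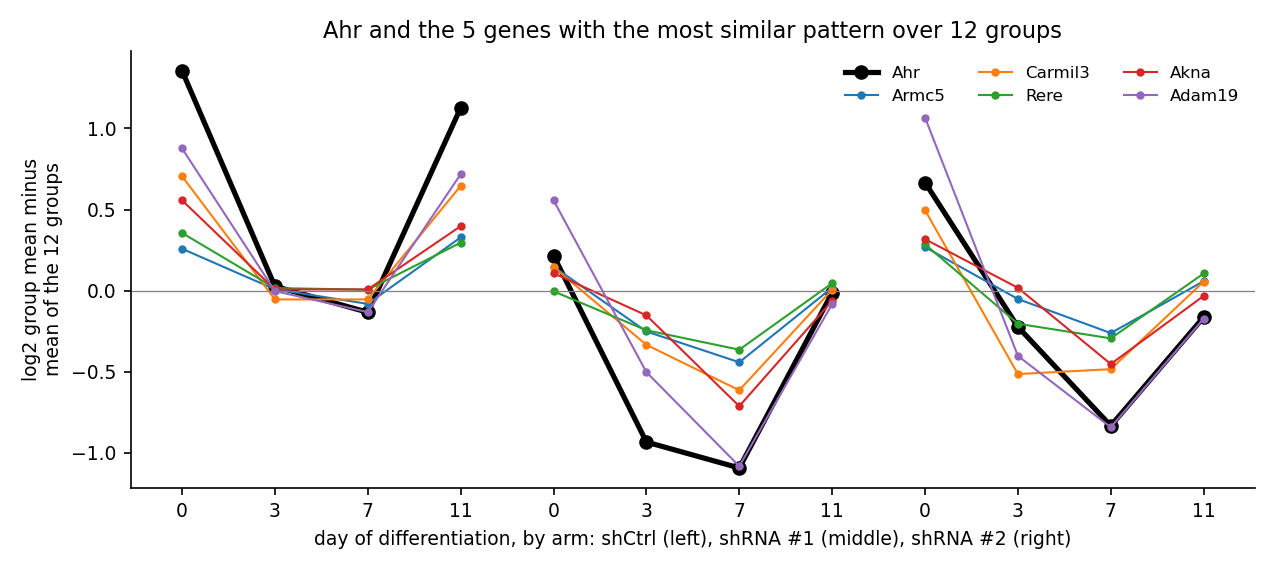
Group means of Ahr and the 5 genes with the highest correlation to it, each less its own mean over the 12 groups (y axis, log2), at days 0, 3, 7 and 11 in control, shRNA 1 and shRNA 2 (x axis, left to right). All 6 dip at days 3 and 7 in control and return at day 11, and Ahr spans the widest range.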

How the data were processed

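The 32 libraries were made from total RNA with an Illumina TruSeq RNA kit, per the labels' protocols. The submitters' processing notes name TopHat2 2.1.0, Bowtie2 2.2.6, SAMtools 1.3.1 and HTSeq 0.6.1, with no role for each. The genome build, the annotation and the use of strand are not given in the sources used here. The deposited values are log2 values of 20560 genes from -1.56 to 17.99, in the form of a regularized log transform, a step no header or label names. Such a transform draws low genes towards their mean, so their differences are understated.

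Whole reads were rebuilt by inverting that form. The result lay within 0.1 of a whole number for 99.1% of values (20% by chance). They give depth, normalized reads (reads divided by size factors) and the reads of rare genes, of which 3 or fewer counted as the floor.

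Tests used limma 3.58.1 in R 4.3.3 on the deposited values, with its trend and robust options. A gene entered a fit if at least 4 of its libraries had 2^value of 10 or more. Adjusted p-values are limma's with Benjamini-Hochberg adjustment over all genes tested, and called means under 0.05. One fit per day compared knockdown with control and 1 the 3 arms, 1 used the 16 control libraries and 1 all 32. Confidence intervals are at 95% and not adjusted. The labels call replicates biological and name no culture, so p-values measure the spread between these libraries. Scripts were tested on simulated data.

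The members and the 12 gene lists were chosen with earlier results of these data known. Named genes are the members, up to 4 called genes of each list with the largest change per comparison, and the 5 most similar to Ahr and to Cyp1b1. Tdo2 and Ckm fall outside this rule and were named after their values were seen. Alternatives were other filters, equal totals, no trend, 1 fit of 32 libraries, hairpins as separate groups, a replicate block, voom or log2 on rebuilt reads, and leaving out each library. Leave-one-out, block and voom for the change of effect with time were chosen after seeing the data. For 20532 genes, positions come from GENCODE M21, matched by Ensembl ID, which may differ from the build used by the authors.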

Additional observations from a re-analysis of the deposited data

Results flagged for a closer look

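In 3 of 20 control groups tested for a library apart from the rest, 1 library stood apart, where chance gives about 1 in 20. These were Ahr in control replicate 3 of day 7 at 8.81 (the nearest other 8.71), Cyp1b1 in control replicate 4 of day 7 at 13.91 (the nearest 13.85) and Cyp1b1 in control replicate 3 of day 11 at 14.16 (the nearest 14.08). All 3 gaps were 0.1 or less on the log2 scale.

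The hairpins differed from each other, as shRNA 2 minus shRNA 1, at day 0 in Ahr by 0.46, in Arnt by 0.18, in Tiparp by 0.20, in Cyp1b1 by 0.13 and in Nqo1 by -0.19. At day 3 they differed in Ahr by 0.71, in Arnt by 0.16, in Tiparp by -0.34, in Cyp1b1 by -0.17 and in Nqo1 by -0.43, and at day 7 in Nqo1 by -0.47.

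The knockdown effect differed from that of day 0 for Cyp1b1 by -0.32 at day 3, by -0.30 at day 7 and by -0.68 at day 11, and for Tiparp by 0.36 at day 7 and by 0.96 at day 11.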

How the results depend on the processing

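Of 1461 alternative values for 71 results, 1391 kept their direction and their side of the threshold, 29 lost a call, 23 gained one, 12 changed sign and 6 counts moved by over 1.5 times. The calls on Tiparp at days 7 and 11 and on Cyp1b1 at days 7 and 11 in knockdown were kept under each alternative run. Ahrr and Cyp1a1 held few reads, did not pass the filter and had no test.

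With the replicate number as a block, Cyp1b1 at day 3 was -0.26 and no longer called (adjusted p = 0.0847, from 2.29e-09 to 0.0847 over its alternatives), so the count of members other than Ahr called in knockdown at day 3 was 0. The block also called Nqo1 between the hairpins at day 11 (adjusted p = 0.00877). The numbers did not pair the control libraries across days. Over 24 pairs of same-numbered control libraries the correlation of deviations ran from -0.09 to 0.12, and 8 of 24 correlated best with their own number. Between arms within day 11 the 6 correlations ran from 0.00 to 0.21, with 3 over 0.1, and within the other days none was over 0.1.

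With the hairpins as separate groups, Tiparp at day 0 was 0.12 and called (adjusted p = 0.0138, from 0.0138 to 0.773 over its alternatives), which gave 1 member called at day 0, and 2 members were called at day 3. In 1 fit of all 32 libraries, 2 members were called at day 3 and 4 at day 7, and Ahr differed between the hairpins at day 7 by 0.26 (adjusted p = 0.03). Leaving out 1 library in turn, the count of members called ran from 0 to 0 at day 0, 1 to 2 at day 3, 2 to 3 at day 7 and 2 to 3 at day 11. The count of 2 at day 3 came without shRNA 2 replicate 2. Beside this, the knockdown difference of Ahr ran from -0.99 to -0.83 at day 0, -0.75 to -0.47 at day 3, -0.88 to -0.77 at day 7 and -1.26 to -1.15 at day 11.

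Signs changed where the value was near 0. Arnt in knockdown at day 0 ran from -0.04 to 0.04 without single libraries, with values of -0.02, -0.04, 0.00 and 0.00 below 0. Between the hairpins at day 7, Tiparp was -0.07 and -0.01 without replicate 1 of either hairpin and ran from -0.07 to 0.10 over all libraries left out. Cyp1b1 was 0.04 with equal totals, 0.01 and 0.06 without replicate 2 of either hairpin, and ran from -0.06 to 0.06. At day 11 Cyp1b1 was -0.03 without shRNA 1 replicate 2 and ran from -0.03 to 0.18. Nqo1 in control at day 3 was -0.09 with equal totals and -0.02 without control replicate 1 of that day, and ran from -0.02 to 0.11.

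Equal totals moved the share of higher among called genes from 25.1% to 43.3% for knockdown at day 0, from 50.1% to 38.6% for control at day 3 and from 48.2% to 39.2%, for control, at day 7. The cause of these changes was not tested. Leaving out a library changed no call on the change of effect with time, and in the control course it ended those on Cyp1b1 at day 7 and Arnt at day 11.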
